A study of Mus musculus with 15 samples.

Results

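Transcripts of 7 surface proteins linked to ageing of blood stem cells were followed: Neo1, Alcam, Ptprk, Ghr, Ptger4, Dsg2 and Cd38. The 7 genes were taken by symbol from a deposited table of 20696 genes, and each matched a single entry. Expression was measured by bulk RNA sequencing in hematopoietic stem cells (HSCs), sorted by flow cytometry from mouse bone marrow, in 3 groups of 5 libraries. The mice were 18 months of age in the aged Thbs1 knockout and aged control groups and 3 months of age in the young control group. Thbs1 encodes thrombospondin-1, a secreted matrix glycoprotein. The labels give neither the strain, nor the sort gate, nor the cells in which Thbs1 was deleted, and they do not say whether the 5 libraries of a group came from separate animals. Values are FPKM, that is, fragment counts scaled to exon length and to library depth, so that levels of genes of different length can be set side by side.

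The 7 proteins sit in the plasma membrane and fall into 3 kinds. Neogenin (Neo1), the growth hormone receptor (Ghr) and the prostaglandin E2 receptor EP4 (Ptger4) bind soluble or matrix-bound ligands and pass a signal inward. Activated leukocyte cell adhesion molecule (Alcam, CD166), the receptor tyrosine phosphatase kappa (Ptprk) and desmoglein 2 (Dsg2) bind partners on neighbouring cells, Dsg2 as a cadherin of desmosomes. Cd38 is an ectoenzyme that breaks down NAD and forms calcium-mobilizing nucleotides, and it is widely used as a surface marker of blood cells. Ageing of the HSC compartment is known for an enlarged phenotypic pool, a bias towards myeloid and platelet output and higher transcript levels of many surface proteins.

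Reads in genes, recovered from the rounding steps of the deposited values, came to between 16649146 and 28610036 per library. Each column was placed in a group by its sample title. The header's library names also give a sex. By them the aged control group holds 3 male and 2 female libraries, and each other group 2 male and 3 female. The groups are thus not balanced for sex. GEO's sample descriptions pair the library names with the titles in another way, and for 10 of the 15 columns they point to another group, so every group comparison here rests on the titles. Thbs1 itself, which should be lost in a knockout, was not lower in the libraries carrying that label: it averaged 10.4 ± 7.84 FPKM in the libraries labelled aged Thbs1 knockout, against 2.90 ± 3.84 FPKM in aged controls and 4.24 ± 5.28 FPKM in young controls (SD, n = 5 each). Single libraries ran from 1.69 to 17.89 FPKM in that group, from 0.01 to 8.75 FPKM in aged controls and from 0.7 to 13.38 FPKM in young controls. The lowest Thbs1 value of all thus lay in a library titled aged control. Whether this reflects the placing of columns in groups was not tested. The difference to aged controls was 1.73 on the log2(FPKM + 1) scale with a limma adjusted p of 0.302. Because the deleted part of the gene is not given in the labels, remaining reads from it do not settle the genotype, and these libraries are called knockout-labelled below. All 10 HSC marker genes that were listed were found in every group, with summed levels of 673.6 to 866.3 FPKM in knockout-labelled libraries, 958.7 to 1064 FPKM in aged controls and 798.1 to 851.6 FPKM in young controls. Ebf1 and Ms4a1 of B cells, Csf1r, Ccr2 and Adgre1 of macrophages and Cdh5, Cxcl12 and Lepr of endothelium and stroma stayed under 1 FPKM in every library. Others on the same lists did not: Cd68 was at 5.35 to 11.31 FPKM in knockout-labelled libraries, 7.02 to 12.08 FPKM in aged controls and 7.98 to 11.62 FPKM in young controls, and Pecam1 at 5.62 to 10.17, 9.74 to 12.12 and 8.72 to 12.33 FPKM in the same groups. The summed levels of the other lists overlapped between all groups: T and NK cell genes, almost all Nkg7, came to 22.08 to 56.57 FPKM in knockout-labelled libraries, 44.6 to 117.5 FPKM in aged controls and 51.84 to 102.8 FPKM in young controls. Granulocyte genes came to 3.08 to 41.91, 4.41 to 13.3 and 5.92 to 17.56 FPKM and erythroid genes to 31.1 to 74.58, 47.48 to 86.32 and 44.22 to 88.88 FPKM in the same order of groups. Their part in the results below was not tested. Cd79b, a part of the B cell receptor, was at 29.22 to 55.09 FPKM in knockout-labelled libraries, 35.95 to 63.83 FPKM in aged controls and 34.17 to 45.03 FPKM in young controls. Megakaryocyte genes, mainly Pf4, summed to 117.2 to 301.6 FPKM in knockout-labelled libraries, 204.5 to 1708 FPKM in aged controls and 281.3 to 400.6 FPKM in young controls. In bulk samples fewer cells with a transcript and less transcript per cell cannot be told apart.

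Averaged over all 15 libraries, the 7 genes spanned from Cd38 at 12.1 FPKM and Ptger4 at 10.2 FPKM through Neo1 at 2.47, Alcam at 1.5 and Ghr at 1.26 FPKM to Ptprk at 0.957 and Dsg2 at 0.646 FPKM. Neighbours in this order overlapped over libraries, except that the lowest Ptger4 value (5.48 FPKM) stood above the highest Neo1 value (5.31 FPKM). Genes with a mean of at least 1 FPKM were tested with limma across the whole table (11345 genes), which took in 5 of the 7; Ptprk and Dsg2 lay under that level and were compared by an exact two-sided permutation test of 5 against 5 libraries, whose smallest possible p is 0.0079. Differences are on the log2(FPKM + 1) scale, which understates the change of low genes, and Benjamini-Hochberg adjusted p-values run over all genes tested.

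Aged HSCs carried more Cd38 and more Ptger4 transcript than young HSCs. Both genes rose, by 1.53 (SE 0.24, limma adjusted p = 0.000598) and by 0.87 (SE 0.20, limma adjusted p = 0.0132). They were the 2 of 5 tested genes that passed, both upward, where 4.42% of all tested genes were called, 3.18% higher and 1.23% lower. The group mean was higher in aged controls for 7 of 7 genes and for 47.8% of all tested genes. Here and below, such shares leave out genes under the level filter, Ptprk and Dsg2 among them. The 7 genes were chosen as linked to ageing and with earlier results of these data known, so their common direction is a description. The median difference was 0.70 over the 5 tested genes of the 7 and -0.02 over all tested genes. For 3 genes, Cd38, Ptger4 and Ptprk, the lowest aged control lay above the highest young control. Cd38 and Ptger4 are 2 of the 5 tested genes, and Ptprk was not among the tested genes. Of all tested genes, 4.57% lay wholly higher in aged controls and 2.59% wholly lower.

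**Figure D1:**
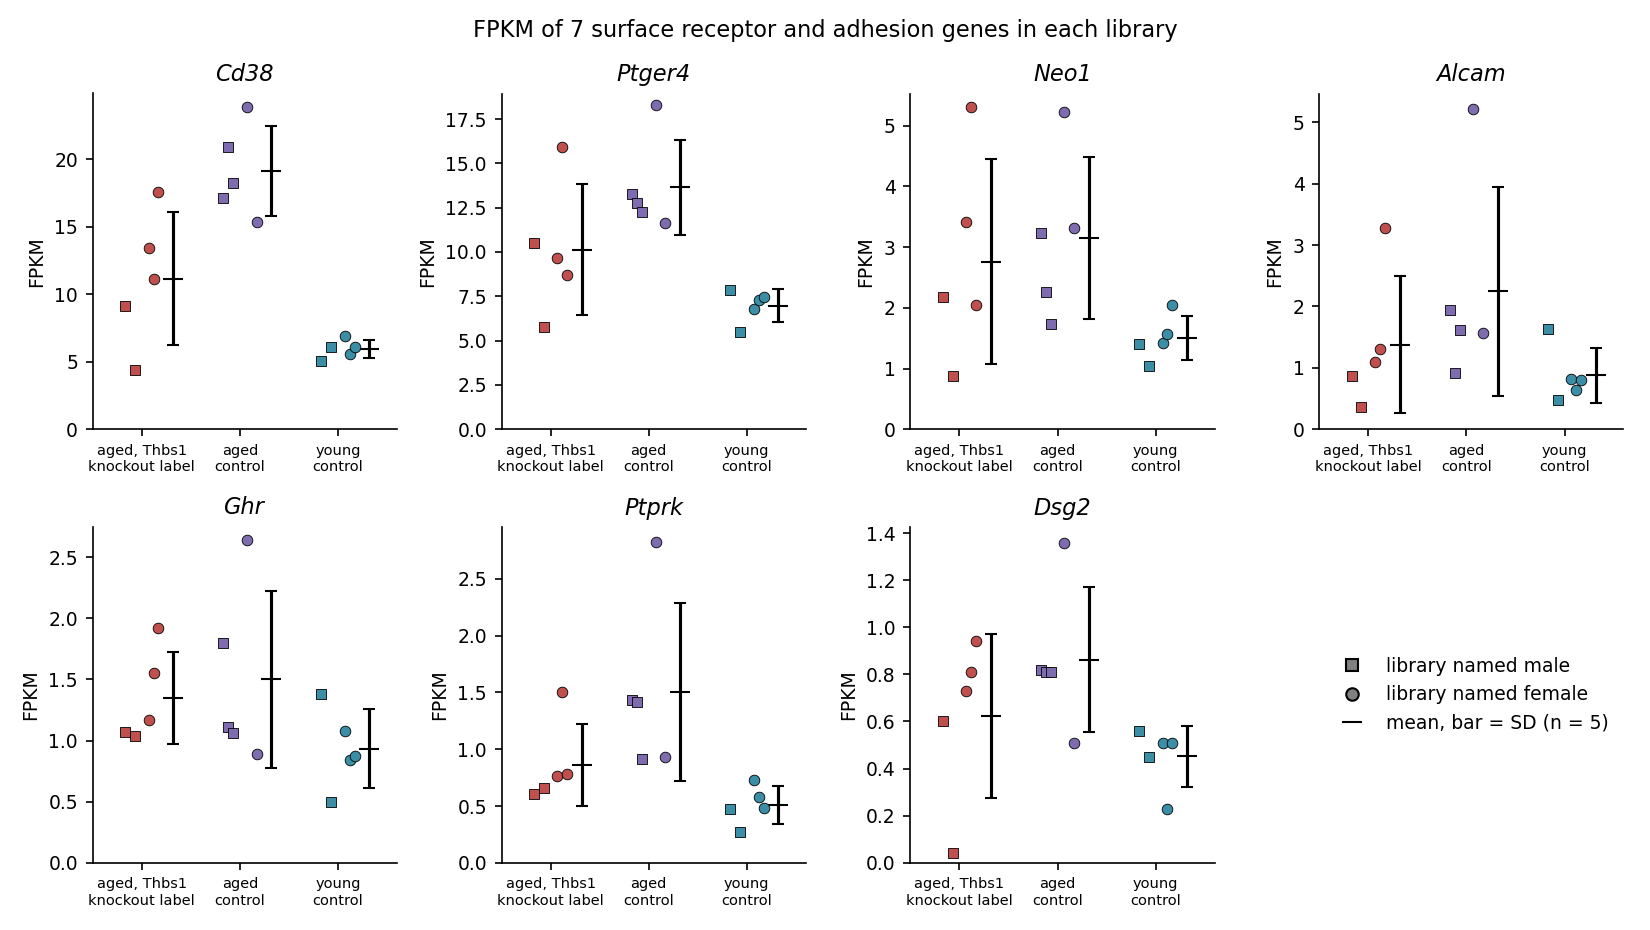
FPKM of each gene (vertical axis, linear, from 0) in the 5 libraries of each group, squares for libraries named male and circles for libraries named female; the line and bar beside the points are the mean and SD (n = 5). Cd38 sits at 15.37 to 23.89 FPKM in aged controls and at 5.03 to 6.89 FPKM in young controls with no overlap, while the knockout-labelled libraries spread from 4.41 to 17.59 FPKM across both.

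Between knockout-labelled libraries and aged controls no gene of the 7 passed in the fit with no covariate (0 of 5 tested by limma). In that fit 1.55% of tested genes were called, 0.361% higher and 1.19% lower, and 1469 genes had an unadjusted p under 0.05. Cd38 was called once sex entered as a covariate. The group mean was lower in the knockout-labelled libraries for 7 of 7 genes and for 54.6% of all tested genes. The median difference was -0.43 over the 5 tested genes of the 7 against -0.03 over all tested genes. These groups overlapped for every gene of the 7 (0.749% of tested genes lay wholly higher and 1.6% wholly lower). Against young controls the knockout-labelled libraries had the higher mean for 7 of 7 genes and for 42.7% of all tested genes. The median difference there was 0.43 over the 5 tested genes against -0.06 over all tested genes. No gene passed there either (0 of 5 by limma, where 1.63% of tested genes were called, 1.01% higher and 0.617% lower, and 2401 had an unadjusted p under 0.05), and the groups overlapped for every gene (2.18% of tested genes lay wholly higher and 2.32% wholly lower). The summed HSC markers, too, were highest in aged controls without overlap. Of the listed markers, Ly6a alone stood wholly above both other groups. It was at 240.6 to 306.1 FPKM in aged controls, 84.9 to 208.8 FPKM in knockout-labelled libraries and 119.8 to 194.5 FPKM in young controls. The other listed HSC markers overlapped between aged controls and both other groups. The part of these markers in the differences was not tested. The comparisons share libraries pairwise, so a high level in the aged controls enters the first upward and the second downward.

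**Figure D2:**
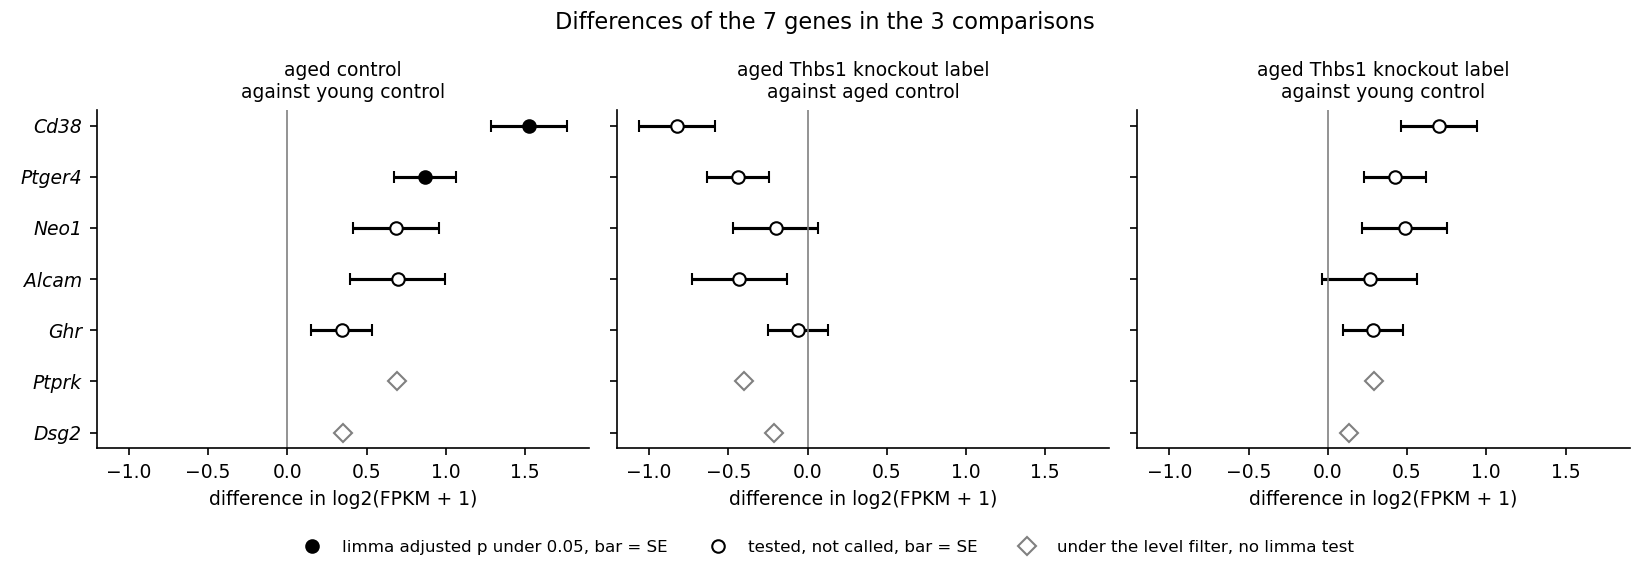
Difference of each gene in log2(FPKM + 1) (horizontal axis) in the 3 comparisons, with bars for the limma SE; filled points have a limma adjusted p under 0.05 and diamonds mark Ptprk and Dsg2, which lay under the level filter and have no limma test. Filled points appear for Cd38 (1.53) and Ptger4 (0.87) between aged and young controls.

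Cd38 lies on the plus strand at chr5:43868553-43912375 (GRCm38, ENSMUSG00000029084, exonic length 3890 bases). Its levels were 9.16, 4.41, 13.44, 11.16 and 17.59 FPKM in knockout-labelled libraries 1 to 5, 17.15, 20.88, 18.26, 23.89 and 15.37 FPKM in aged controls and 5.03, 6.08, 6.89, 5.58 and 6.11 FPKM in young controls. Aged controls thus stood wholly above young controls, with means of 19.1 ± 3.34 and 5.94 ± 0.691 FPKM (SD, n = 5 each), a 3.22-fold ratio. The knockout-labelled libraries averaged 11.2 ± 4.90 FPKM, between the other means: library 2 was below every young control and library 5 within the aged control range. Between aged and young controls the difference was of like size among female (1.49) and male (1.59) libraries.

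Between knockout-labelled libraries and aged controls, Cd38 differed by -0.82 (SE 0.24, limma adjusted p = 0.101). Among libraries named male (2 knockout-labelled, 3 aged controls) the difference was -1.41, and among those named female (3 and 2) it was -0.44. The male knockout-labelled libraries were 1 and 2, at 9.16 and 4.41 FPKM. The difference between the sexes, 0.97, had an unadjusted limma p of 0.0205 and an adjusted p of 0.999, and no tested gene passed for such a difference (377 had an unadjusted p under 0.05). The call depended on the fit and on its libraries. With all libraries kept, Cd38 was called with sex as a covariate and with array weights. Without knockout-labelled library 5 the difference was -1.005 with a limma adjusted p of 0.0231. Without libraries 2 and 5, which had the highest sums of FPKM, it was -0.71 with a limma adjusted p of 0.0277. Over all 25 alternatives the limma adjusted p of this difference ran between 0.00598 and 0.882. Against young controls the knockout-labelled libraries differed by 0.70 (SE 0.24, limma adjusted p = 0.128). Without knockout-labelled library 2 that difference was 0.97 with an adjusted p of 0.00835, and over all alternatives the limma adjusted p ran between 0.000423 and 0.742.

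The stretch of the Cd38 promoter window that holds its motif match is shown because it holds the single match, among the 6 genes with a RefSeq window, to letters bound by GATA factors, which are prominent in HSCs and platelet precursors; the capitals mark AGATAA, whose first base lies at -31 from the RefSeq start on the plus strand (GRCm38.p6, chr5:43868766-43868795, placed in the first exon of a Cd38 transcript by GENCODE).
Cd38: gggaaaggaagcAGATAAaagcaagtgaaa
Of 32817 RefSeq windows of 250 bases upstream of a start, 9.99% hold AGATAA on either strand. The Cd38 window had 48.8% G and C and 1 CpG, where the median window had 52.4% and 6.

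Ptger4 couples to the stimulatory G protein and raises cyclic AMP on binding prostaglandin E2, a lipid known to act on HSC survival and homing. The gene lies on the minus strand at chr15:5206661-5244187 (GRCm38, ENSMUSG00000039942, exonic length 6648 bases). Its exons overlap those of Ttc33 and Gm15937 on the other strand, and since the strand setting of the counting is not given, reads of these genes cannot be told apart there. Ptger4 had 10.52, 5.79, 9.68, 15.94 and 8.72 FPKM in knockout-labelled libraries 1 to 5, 13.28, 12.76, 12.23, 18.30 and 11.63 FPKM in aged controls and 7.87, 5.48, 6.80, 7.27 and 7.45 FPKM in young controls. Every aged control exceeded every young control, at means of 13.6 ± 2.68 and 6.97 ± 0.919 FPKM (SD, n = 5 each), a 1.96-fold ratio. The difference was 0.93 among female libraries (limma adjusted p = 0.182) and 0.86 among male libraries (limma adjusted p = 0.0664), so that neither sex passed alone. The knockout-labelled libraries averaged 10.1 ± 3.71 FPKM and overlapped both other groups, with differences of -0.44 to aged controls (SE 0.20, limma adjusted p = 0.340) and of 0.43 to young controls (SE 0.20, limma adjusted p = 0.223).

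The promoter windows of Ptger4 and Ptprk are shown because both genes separated aged from young controls without overlap and lie in CpG-rich sequence, unlike Cd38. Both are the 250 bases before the RefSeq start (GRCm38.p6), chr15:5244188-5244437 on the minus strand and chr10:28074570-28074819 on the plus strand, with each CpG in capitals.
Ptger4: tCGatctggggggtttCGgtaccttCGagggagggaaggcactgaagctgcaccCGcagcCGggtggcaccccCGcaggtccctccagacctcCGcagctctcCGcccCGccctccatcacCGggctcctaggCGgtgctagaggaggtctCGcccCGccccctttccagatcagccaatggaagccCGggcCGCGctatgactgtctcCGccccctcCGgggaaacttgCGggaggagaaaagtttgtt
Ptprk: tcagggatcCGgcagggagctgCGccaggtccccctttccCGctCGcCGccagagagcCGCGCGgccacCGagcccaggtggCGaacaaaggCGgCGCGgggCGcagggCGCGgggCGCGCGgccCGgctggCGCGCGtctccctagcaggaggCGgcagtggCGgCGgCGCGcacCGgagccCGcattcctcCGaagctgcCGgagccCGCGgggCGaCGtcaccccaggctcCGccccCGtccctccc
The Ptger4 window held 19 CpGs and the Ptprk window 38, where the upper quartile of all windows was 16. Neither held a match to any of the 8 motifs searched on both strands, which were AGATAA for GATA factors, TGTGGT for RUNX factors, ACCGGAAG for ETS factors, TTCNNNGAA for STAT factors, TGANTCA for AP-1, TGACGTCA for the cyclic AMP response element, CACGTG for the E-box and TATAAA for the TATA box. The shares of all windows with a match were 14% for RUNX, 1.72% for ETS, 7.01% for STAT, 6.75% for AP-1, 1.55% for the cyclic AMP response element, 6.02% for the E-box and 12.4% for TATA. CpG counts were 45 for Neo1, 22 for Alcam and 17 and 8 for the pair of Ghr windows. The second Ghr window held matches to AP-1 at -34 and to TATA at -188, and the Neo1 and Alcam windows held none.

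Neo1 encodes neogenin, a receptor for netrins and repulsive guidance molecules that also acts in bone morphogenetic protein signalling (chr9:58874687-59036441, minus strand, ENSMUSG00000032340). Neo1 had 2.18, 0.87, 3.42, 5.31 and 2.04 FPKM in knockout-labelled libraries 1 to 5, 3.23, 2.26, 1.73, 5.22 and 3.32 FPKM in aged controls and 1.41, 1.05, 1.42, 1.57 and 2.05 FPKM in young controls. Aged control 3 was the only aged control within the young range. The difference between aged and young controls, 0.69 (SE 0.27), did not pass (limma adjusted p = 0.168), at means of 3.15 ± 1.33 and 1.5 ± 0.362 FPKM (SD, n = 5 each). Once sex entered the fit it passed (0.80, limma adjusted p = 0.0402), as it did after a correction for gene length (0.83, limma adjusted p = 0.0243); over all 24 alternatives the adjusted p ran between 0.0141 and 0.997. The knockout-labelled libraries averaged 2.76 ± 1.69 FPKM, with differences of -0.20 to aged controls (limma adjusted p = 0.801) and 0.49 to young controls (limma adjusted p = 0.294). The sign against aged controls turned without knockout-labelled library 2 (0.02).

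Ghr, the growth hormone receptor, signals through the kinase JAK2 and STAT5 (chr15:3317760-3583492, minus strand, ENSMUSG00000055737). Its levels were 1.07, 1.04, 1.17, 1.55 and 1.92 FPKM in knockout-labelled libraries 1 to 5, 1.80, 1.11, 1.06, 2.64 and 0.89 FPKM in aged controls and 1.38, 0.50, 1.08, 0.84 and 0.87 FPKM in young controls. All 3 groups overlapped. Means were 1.35 ± 0.378 FPKM in knockout-labelled libraries, 1.5 ± 0.726 FPKM in aged controls and 0.934 ± 0.325 FPKM in young controls (SD, n = 5 each). The difference between aged and young controls was 0.34 (SE 0.19, limma adjusted p = 0.313). Knockout-labelled libraries differed from aged controls by -0.06 (limma adjusted p = 0.928), a sign that turned without aged control 4 (0.09), and from young controls by 0.28 (limma adjusted p = 0.374).

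Among the adhesion genes, Alcam binds itself and CD6 across cell contacts (chr16:52248996-52454074, minus strand, ENSMUSG00000022636). Alcam had 0.87, 0.37, 1.09, 1.30 and 3.27 FPKM in knockout-labelled libraries 1 to 5, 1.94, 0.91, 1.62, 5.22 and 1.56 FPKM in aged controls and 1.64, 0.47, 0.82, 0.64 and 0.81 FPKM in young controls. In each group a single library stood well above the other four: library 5 of the knockout-labelled group, aged control 4 and young control 1. The mean was 2.25 ± 1.70 FPKM in aged controls and 0.876 ± 0.450 FPKM in young controls (SD, n = 5 each), a difference of 0.70 (SE 0.30) that did not pass (limma adjusted p = 0.204). Knockout-labelled libraries averaged 1.38 ± 1.11 FPKM, with differences of -0.43 to aged controls (limma adjusted p = 0.564) and 0.27 to young controls (limma adjusted p = 0.598).

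Ptprk is a phosphatase whose extracellular part binds the same protein on the next cell and whose substrates lie at cell junctions (chr10:28074820-28597397, plus strand, ENSMUSG00000019889). With 13328 exonic bases it has the largest exonic length of the 7, and its low FPKM stood for 89 to 864 reads a library. Levels were 0.61, 0.66, 0.76, 1.5 and 0.78 FPKM in knockout-labelled libraries 1 to 5, 1.43, 1.42, 0.91, 2.83 and 0.93 FPKM in aged controls and 0.47, 0.27, 0.73, 0.58 and 0.48 FPKM in young controls. The lowest aged control (0.91) stood above the highest young control (0.73), and the means of 1.5 ± 0.783 and 0.506 ± 0.168 FPKM (SD, n = 5 each) gave a 2.97-fold ratio. The difference of 0.69 had an exact permutation p of 0.0079, the smallest that 5 against 5 libraries can give. With the filter lowered to a mean of 0.5 FPKM, limma called it (adjusted p = 0.0392), and with no filter it did not (adjusted p = 0.064). Knockout-labelled libraries averaged 0.862 ± 0.363 FPKM; they differed from aged controls by -0.40 (exact permutation p = 0.0714) and from young controls by 0.29 (exact permutation p = 0.0317, or a limma adjusted p of 0.42 with no filter). Without knockout-labelled library 4, whose 1.5 FPKM lay far above the rest of its group, these differences were -0.51 (exact permutation p = 0.0238) and 0.18 (exact permutation p = 0.0635); the second p was also above 0.05 without library 5 and with any of young controls 1, 2, 4 and 5 left out. The low gene tests are 6 in all, and their exact p-values are not adjusted.

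Dsg2, the desmosomal cadherin found in most tissues that form desmosomes, had the lowest level (chr18:20558074-20604521, plus strand, ENSMUSG00000044393, overlapped by the antisense gene Gm16090). It had 0.60, 0.04, 0.73, 0.81 and 0.94 FPKM in knockout-labelled libraries 1 to 5, 0.82, 0.81, 0.81, 1.36 and 0.51 FPKM in aged controls and 0.56, 0.45, 0.51, 0.23 and 0.51 FPKM in young controls. Aged controls 1 to 4 stood above every young control, and aged control 5 lay within the young range. The lowest value, in knockout-labelled library 2, came from 6 reads. The means were 0.624 ± 0.349 FPKM in knockout-labelled libraries, 0.862 ± 0.308 FPKM in aged controls and 0.452 ± 0.130 FPKM in young controls (SD, n = 5 each). Aged and young controls differed by 0.35 (exact permutation p = 0.0317), and with no filter limma did not call the difference (adjusted p = 0.338). Knockout-labelled libraries differed from aged controls by -0.21 (exact permutation p = 0.381) and from young controls by 0.13 (exact permutation p = 0.452), which turned to -0.08 when reads were modelled instead of FPKM and was 0.29 without knockout-labelled library 2 (exact permutation p = 0.0079).

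Single libraries held the highest or lowest values of several of the 7 genes at once. Aged control 4 held the highest value of its group for 7 of 7 genes, where 21.7% of all tested genes peaked in that library. Knockout-labelled library 2 held the lowest value of its group for 6 of 7 genes, where 25.2% of tested genes did so; library 5 held the highest for 4 and library 4 for the other 3. Young control 2 was the lowest young library for 5 of 7 genes, against 28.6% of tested genes. By exonic length, 6 of the 7 genes exceeded 5198 bases, the lower bound of the longest of 3 equal length classes of tested genes. The median level of that class relative to the shortest class also differed between libraries (log2 differences from the gene means). It was -0.468 in knockout-labelled library 2, 0.307 in library 4 and -0.649 in library 5. In aged control 4 it was 0.227, in young control 2 it was -0.024 and in young control 1 it was 0.384. Between aged and young controls the long genes had a median difference of -0.147. With a correction for gene length, 3 of the 7 genes were called in that comparison, against 2 without it. Whether length composition has a part in the single-library highs and lows was not tested.

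**Figure D3:**
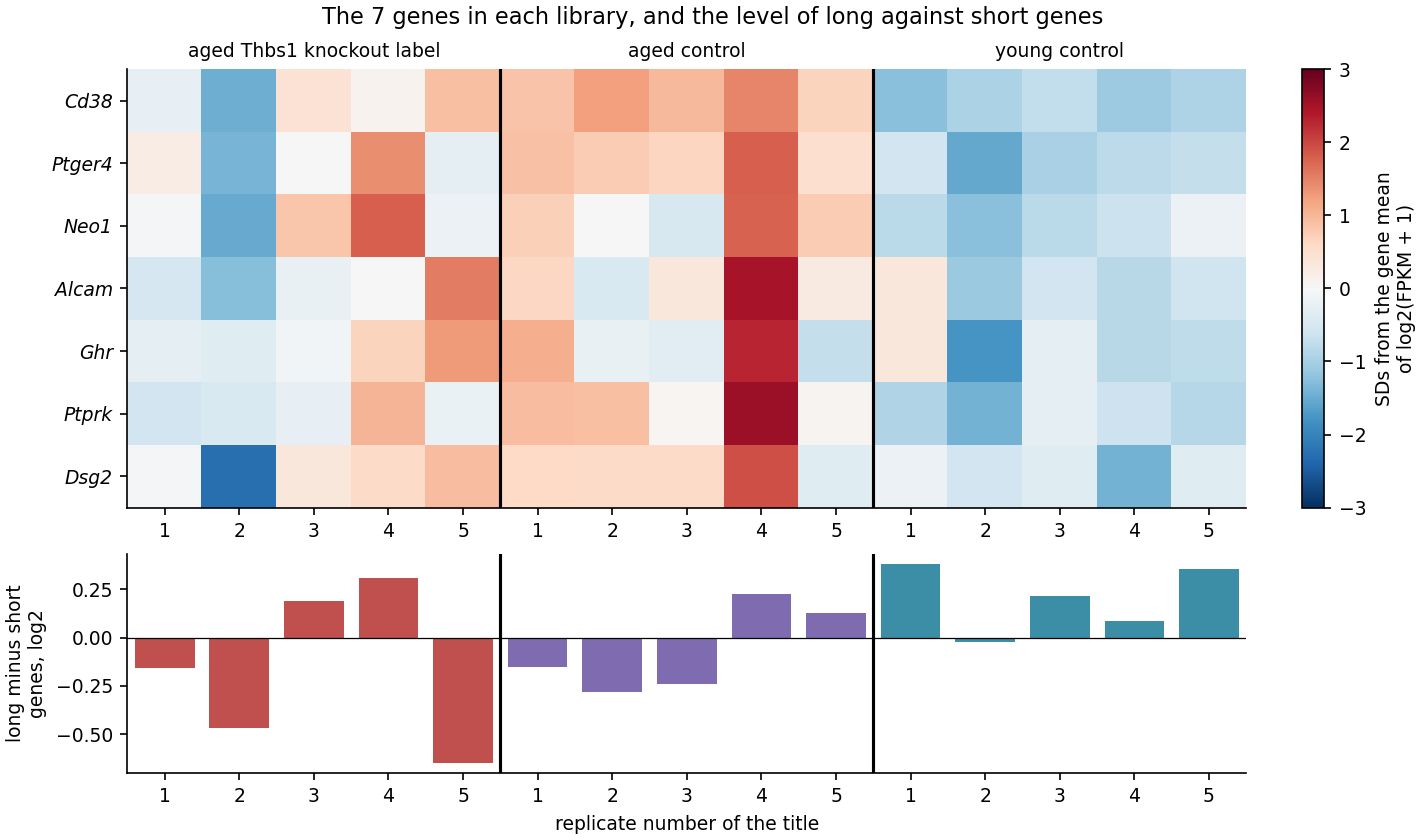
Upper panel, each gene in each of the 15 libraries as SDs from that gene's mean of log2(FPKM + 1), red high and blue low; lower panel, median level of the longest of 3 length classes of genes minus that of the shortest (log2). Aged control 4 is red for all 7 genes, and knockout-labelled library 2 is blue for all 7 with a long-minus-short value of -0.468. Knockout-labelled library 5, with the lowest such value of -0.649, holds the highest level of its group for 4 genes.

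Other genes tracked the 7 over the libraries. Cd38 was closest to Selp, the platelet and endothelial adhesion receptor P-selectin (Pearson r = 0.936), and to Cysltr2, a cysteinyl leukotriene receptor (r = 0.932). Ptger4 was closest to Dglucy (r = 0.911) and Myo1e (r = 0.903), Neo1 to Tcp11l2 and Ptger4 (r = 0.879 each), and Ptprk to Lratd2 (r = 0.924) and Nxpe5 (r = 0.884). Alcam was closest to Gda, guanine deaminase (r = 0.891), and Zfp1 (r = 0.870), Dsg2 to Zfp1 (r = 0.907) and B4galt4 (r = 0.889), and Ghr to Alcam (r = 0.868) and Klf9 (r = 0.850). These are the highest of all tested genes over 15 libraries that share groups, depth and length composition, and they are descriptions with no test.

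Of 102 listed genes that act with the 7 receptors, 90 were in the table and 55 were tested. Between aged and young controls limma called 6 of them higher and 0 lower, where 3.18% of all tested genes were called higher and 1.23% lower, with a median difference of 0.04. Between knockout-labelled libraries and aged controls it called 0 higher and 5 lower (median -0.19), where 0.361% of all tested genes were called higher and 1.19% lower. Between knockout-labelled libraries and young controls it called 1 higher and 0 lower (median -0.17), where 1.01% were called higher and 0.617% lower. With only the compared groups in the fit, 4 of the 5 lower calls ended (limma adjusted p = 0.194 for Rgmb, 0.142 for Bcam, 0.153 for Stat3 and 0.166 for Ptgs1) and that of Socs3 held. Of the 10 tested genes of the prostaglandin pathway, the 5 of desmosomes and the 12 of NAD metabolism, 0 passed between aged and young controls.

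Among 5 tested genes of the list of neogenin partners, 2 were higher in aged than in young controls (3.18% of all tested genes were). Binding of their products to neogenin was not measured. Rgmb, a repulsive guidance molecule, averaged 4.76 ± 0.859 against 2.39 ± 0.173 FPKM (SD, n = 5 each; 0.76, limma adjusted p = 0.0331), a call that leaving out a single library ended in 8 of 10 cases (each young control, and aged controls 1, 2 and 4; adjusted p up to 0.106). Ntn4, a laminin-related netrin, averaged 3.69 ± 1.83 against 0.896 ± 0.473 FPKM (1.27, limma adjusted p = 0.0121) and stayed called in all 10. Rgmb was also lower in knockout-labelled libraries (2.41 ± 1.18 FPKM) than in aged controls, with a difference of -0.81 (limma adjusted p = 0.0445, lost in 7 of 10 omissions, those of aged controls 1 to 4 and knockout-labelled libraries 2, 3 and 5, with an adjusted p up to 0.136, and lost without knockout-labelled libraries 2 and 5 together, with a pseudocount of 0.1, with no filter and with voom on recovered reads).

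The growth hormone list held the largest partner difference. Socs3, a feedback inhibitor of JAK kinases that many cytokines induce, averaged 4.69 ± 0.719 FPKM in knockout-labelled libraries, 18.6 ± 4.99 FPKM in aged controls and 2.40 ± 0.504 FPKM in young controls (SD, n = 5 each). It rose by 2.49 in aged against young controls (limma adjusted p = 1.6e-07) and fell by 1.75 in knockout-labelled libraries against aged controls (limma adjusted p = 1.79e-05), and both calls held in all 10 omissions. The knockout-labelled libraries were also above young controls, by 0.75 (limma adjusted p = 0.0413), a call lost without libraries 2 and 5 together and in 6 of 10 single omissions (young controls 1, 2, 3 and 5 and knockout-labelled libraries 1 and 5, adjusted p up to 0.124). Socs1, a related inhibitor, averaged 22.99 ± 5.23 FPKM in aged and 12.2 ± 3.40 FPKM in young controls (0.87, limma adjusted p = 0.0175), a call lost with any of young controls 1, 3 and 5 and aged controls 1 to 3 left out (adjusted p up to 0.0623). Stat3 averaged 38.4 ± 6.23 FPKM in knockout-labelled libraries and 55.8 ± 4.32 FPKM in aged controls (-0.54, limma adjusted p = 0.0403), a call lost under quantile normalization, median centring, voom and no filter, with the replicate block (adjusted p = 0.0607), without libraries 2 and 5 together, and with any of aged controls 1 to 4 and knockout-labelled libraries 2 and 5 left out (adjusted p up to 0.124). Jak2, Stat5a and Stat5b, the direct route of the receptor, did not pass in any comparison.

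In the adhesion lists, Bcam, a laminin-binding relative of Alcam, averaged 5.64 ± 1.48 FPKM in knockout-labelled libraries, 11.8 ± 3.82 FPKM in aged controls and 6.33 ± 0.497 FPKM in young controls (SD, n = 5 each). The difference was 0.75 between aged and young controls (limma adjusted p = 0.0432, 0.0645 with the replicate block), a call that held in 1 of 10 single omissions, that of aged control 5 (adjusted p otherwise up to 0.144). Between knockout-labelled libraries and aged controls it was -0.92 (limma adjusted p = 0.0267, 0.0522 with the replicate block), a call lost without libraries 2 and 5 together and with any of aged controls 1 to 3 and knockout-labelled libraries 2 and 3 left out (adjusted p up to 0.0864). Ptpru, a phosphatase of the same subfamily as Ptprk, averaged 2.09 ± 0.723 FPKM in aged and 0.73 ± 0.314 FPKM in young controls (0.82, limma adjusted p = 0.0331), a call that held only without young control 2 or aged control 5 among 10 single omissions (adjusted p otherwise up to 0.0992). The junction genes Ctnnb1, Ctnnd1 and Jup did not pass between aged and young controls. Dsc2 and Dsp, the usual desmosomal partners of Dsg2, averaged 0.287 and 0.03 FPKM over all libraries.

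In the prostaglandin list, Ptgs1, the constitutive cyclooxygenase, averaged 38.6 ± 4.76 FPKM in knockout-labelled libraries and 55.4 ± 5.85 FPKM in aged controls (SD, n = 5 each; -0.51, limma adjusted p = 0.0267). That call was lost with any of aged controls 1 to 3 and knockout-labelled libraries 2 and 3 left out (adjusted p up to 0.0924), with median centring, with the replicate block (adjusted p = 0.0678) and without libraries 2 and 5 together. Of the other receptors for prostaglandin E2, Ptger3 averaged 14.8 FPKM over all libraries, and Ptger1 and Ptger2 stayed at or under 0.2 FPKM in each. Slco2a1, the prostaglandin transporter, lay under the filter at 0.27 ± 0.0696 FPKM in knockout-labelled libraries, 1.06 ± 0.443 FPKM in aged controls and 0.338 ± 0.117 FPKM in young controls, and was not tested.

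**Figure D4:**
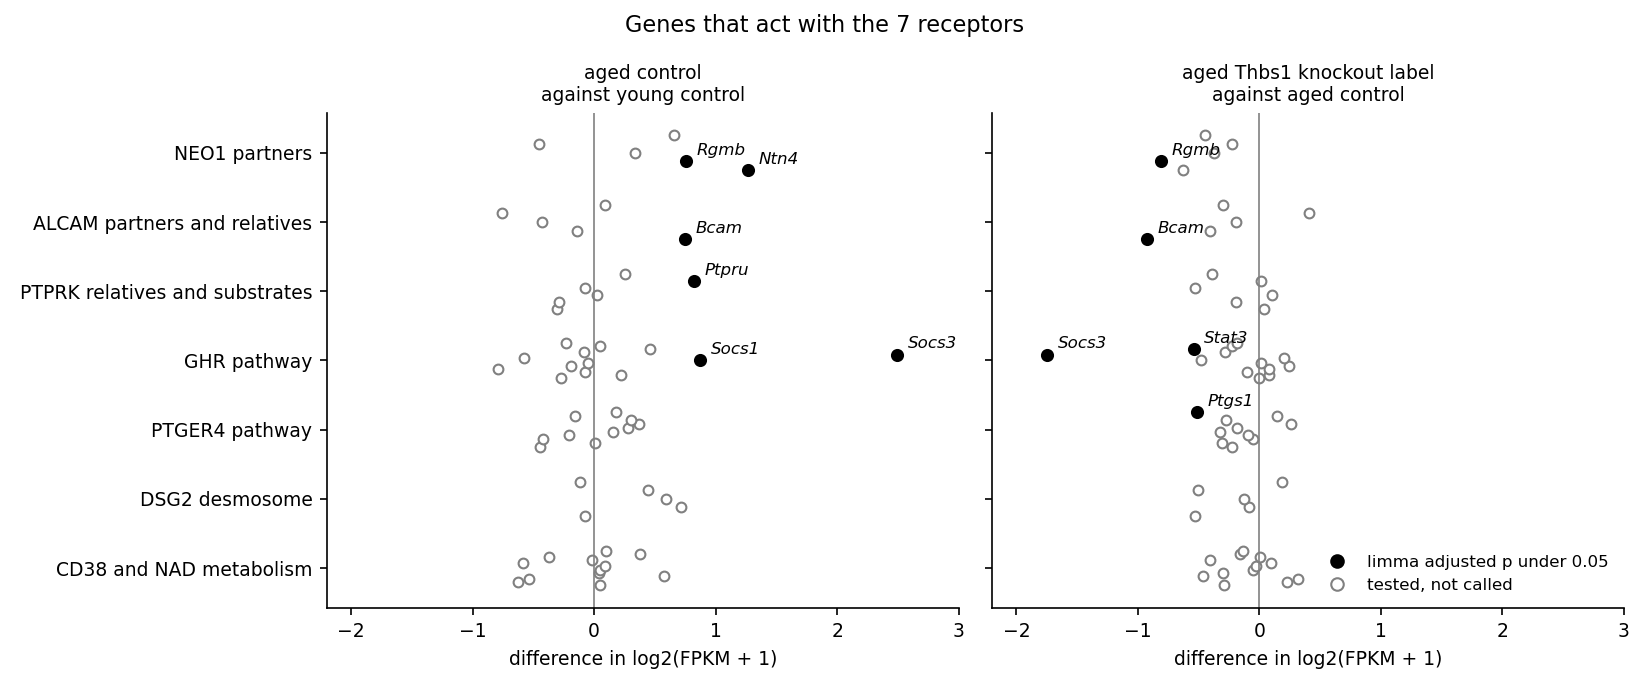
Difference in log2(FPKM + 1) (horizontal axis) of each tested partner gene by list, for aged against young controls and for knockout-labelled libraries against aged controls; filled, named points have a limma adjusted p under 0.05. Socs3 stands apart at 2.49 and -1.75, and the other named genes lie between 0.75 and 1.27 on the left and between -0.92 and -0.51 on the right.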

How the data were processed

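Bulk RNA sequencing covered 15 libraries in 3 groups of 5. Per the labels' protocols, sorted HSCs went into TRIzol-LS and 2 ng of total RNA into SMART-Seq v4. Per the submitters' processing notes, FastQC 0.11.5, STAR and edgeR were used on GRCm38 (mm10), with no settings given. The authors deposited FPKM values with 2 decimals for 20696 genes; all identifiers were found in GENCODE M21, which gave positions and lengths.

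Columns were grouped by their titles. The header's library names hold the sex, and GEO's descriptions pair names with titles differently (the same sample for 5 columns, another for 10). Depth was recovered from the rounding steps; at least 98.35% of values in genes held out of that estimate were whole reads within 0.1 reads.

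From these values log2(FPKM + 1) was compared with limma 3.58.1 in R 4.3.3 (trended prior, all 15 libraries in 1 fit, no covariate, two-sided), for 11345 genes whose mean over all libraries reached 1 FPKM. Genes with an adjusted p under 0.05 were called. The script was tested on simulated data. P-values measure the spread between libraries, which may in part be technical. Promoter windows and motifs came from RefSeq tables (GRCm38.p6), in which 6 of the 7 genes have a window. Named were the 7 genes, the 2 most alike tested genes of each, and of 7 partner lists the called genes, at most 4 for each list and comparison; Slco2a1, Dsc2, Dsp and the other prostaglandin receptors were named after their values were seen, and so were the listed genes named as not passing. The members, lists and tests were chosen with earlier results of these data known. Alternatives for filter, pseudocount, scaling, sex, replicate block, column map, array weights, groups in the fit and single libraries were tried; the length correction, the model on recovered reads (voom) and leaving out 2 libraries together were added after seeing the data.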

Additional observations from a re-analysis of the deposited data

Results flagged for a closer look

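Within the 21 groups of 5 values (7 genes in 3 groups), 2 single libraries stood far from the rest of their group on the log2(FPKM + 1) scale, where chance gives about 1 in 20. Ptprk in knockout-labelled library 4 was 1.5 FPKM while the other four were between 0.61 and 0.78 FPKM, and on the log2(FPKM + 1) scale the gap to the nearest was 0.772 of the group's range. Ptger4 in aged control 4 was 18.3 FPKM while the other four were between 11.63 and 13.28 FPKM, and the gap on that log2 scale was 0.71 of the range. Without aged control 4, the 2 called genes between aged and young controls remained called.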

How the results depend on the processing

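Over the alternatives, the 7 genes had 476 values: 421 kept direction and side of the threshold, 15 lost and 20 gained a call and 20 changed sign. Together with the named partner genes there were 770 values. Of these 600 kept direction and side of the threshold, 119 moved above it, 20 moved below it and 31 changed sign. With columns regrouped as GEO's descriptions pair library names, 0 genes were called between aged and young controls (0 of the 7), 0 between knockout-labelled libraries and aged controls and 15 between knockout-labelled libraries and young controls. The signs turned there between aged and young controls (Neo1 -0.14, Alcam -0.41, Ptprk -0.19, Ghr -0.10, Ptger4 -0.36, Dsg2 -0.31, Cd38 -0.80, Rgmb -0.47, Ntn4 -0.51, Bcam -0.73, Ptpru -0.23, Socs1 -0.56, Socs3 -1.35). They turned too between knockout-labelled libraries and aged controls (Neo1 0.87, Alcam 0.91, Ptprk 0.48, Ghr 0.38, Ptger4 0.67, Dsg2 0.44, Cd38 1.21, Rgmb 0.34, Bcam 0.18, Stat3 0.19, Socs3 1.15) and for Socs3 against young controls (-0.20). Array weights (0.149 to 4.15) called 5397, 3688 and 475 genes in the 3 comparisons, against 501, 176 and 185, and 5, 1 and 3 of the 7; the cause was not tested. Fitting only the compared groups called 1011 and 77 genes in the first and second comparison, and ended 4 partner calls in the second. With no filter, Rgmb, Bcam and Ptpru (aged against young controls), Rgmb, Bcam and Stat3 (knockout-labelled against aged) and Socs3 (knockout-labelled against young) lost their calls. Against young controls, sex as a covariate called 429 genes and the length correction 285, with 1 of the 7 (Ptger4, limma adjusted p = 0.0436; 0.0244 to 0.687 over its alternatives); median centring called 166 higher and 53 lower, against 115 and 70. Between knockout-labelled libraries and aged controls, 1 of the 7, Cd38, was called with sex as a covariate and without knockout-labelled libraries 2 and 5, which also gave 1 of the 7 against young controls. Other sign changes against aged controls were Neo1 with array weights (0.26), without libraries 2 and 5 (0.16) or without single libraries (-0.42 to 0.022, turned without library 2) and Ghr without single libraries (-0.15 to 0.088, turned without aged control 4); against young controls, Dsg2 with voom (-0.081) and Alcam in male libraries alone (-0.30).

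Leaving out single libraries gave 311 to 943 genes (311 to 330 with any of aged controls 1 to 3 and young controls 1 and 3 left out, 943 without aged control 5) and 2 of the 7 between aged and young controls, 95 to 229 genes (95 to 115 with any of aged controls 1 to 3 left out) and 0 to 1 of the 7 between knockout-labelled libraries and aged controls, and 98 to 676 genes (98 to 123 with any young control left out, 496 and 676 without knockout-labelled libraries 3 and 4) and 0 to 1 of the 7 between knockout-labelled libraries and young controls. The differences within female and within male libraries were contrasts in 1 fit of all 15 libraries, with a mean for each group and sex. In each sex Cd38 passed between aged and young controls while Ptger4 did not (limma adjusted p up to 0.182). Deviations of same-numbered libraries correlated at -0.455 to 0.527, without 1 sign over the 5 numbers. Libraries numbered 2 correlated positively in each of the 3 comparisons (0.489, 0.372 and 0.47). The replicate block called 499, 152 and 158 genes and 2, 0 and 0 of the 7. Fits with sex, the block, array weights, voom, 2 groups or quantile normalization were not run for Ptprk and Dsg2, nor contrasts within 1 sex. Low read numbers limit Dsg2 (6 to 257 reads) and Alcam (51 to 851 reads).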

Other observations

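Naprt, which makes NAD from nicotinic acid, averaged 47.2 ± 9.32 FPKM in aged controls and 30.9 ± 2.73 FPKM in young controls (SD, n = 5 each), a difference of 0.58 that missed the threshold (limma adjusted p = 0.0530). Perp and Pkp2, genes of desmosomes, differed by 0.71 (limma adjusted p = 0.0642) and 0.59 (limma adjusted p = 0.0542) between aged and young controls. Unc5a, a netrin receptor, averaged 9.42 ± 2.57 FPKM in aged and 5.44 ± 0.358 FPKM in young controls (0.66, limma adjusted p = 0.0943). Bmpr1a, a bone morphogenetic protein receptor under the filter, was at 0.768 ± 0.451 FPKM in knockout-labelled libraries, 1.10 ± 0.594 FPKM in aged controls and 0.254 ± 0.128 FPKM in young controls. These 5 genes were chosen after their values were seen.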
